A study of Mus musculus with 6 samples.

Results

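The genes described here are the mouse zinc finger genes with symbols from Zfp900 to Zfp999. Membership was set by symbol alone, but the group itself was chosen with earlier results of these data known. Of the 17348 genes in the table, 60 carried such a symbol. RNA sequencing was compared between E13.5 cortex of WT embryos and of Ybx1 cKO littermates, with 3 libraries of each genotype. In the cKO the floxed exons of both Ybx1 alleles were removed by Cre under Nestin control, which acts in neural progenitors and in the cells they give rise to. The labels call the controls WT, and the study elsewhere defines controls as Ybx1 fl/fl without Cre, so the control libraries may carry the unrecombined floxed alleles and do not match the cKO for Cre itself. The cKO allele was made in C57BL/6J zygotes. The labels give no strain for any library, and the part of strain variants in the values below was not tested. Ybx1 encodes YB-1, a protein that binds RNA and DNA through a cold shock domain.

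Most genes with these symbols encode C2H2 zinc finger proteins that carry a KRAB domain. The tandem fingers read a stretch of DNA, often within a retrotransposon. The KRAB domain recruits the scaffold protein TRIM28, which brings the histone methyltransferase SETDB1, HP1 proteins and DNA methyltransferases and so silences the bound chromatin. Such genes arise by tandem duplication, lie in clusters, and differ little in sequence from their latest copies.

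The coding sequences of GENCODE M21 were found for 59 of the 60 genes. In 57 of them the protein held at least 1 C2H2 finger by pattern, with a median of 11 fingers and at most 21, and 52 held the core of a KRAB A box. By the RefSeq annotation of GRCm38.p6, 41 of the 60 lay in 6 clusters, with less than 1 Mb to the next gene of the group. The largest cluster held 13 genes at chr4:145510759-147849126. A cluster on chromosome 17 held 10 genes at chr17:21565816-22867309, and one on chromosome 2 held 9 at chr2:175372034-178078425. The smaller clusters held 4 genes at chr7:42579397-43192109, 3 at chr8:69209018-69749962 and 2 at chr13:62453016-62579321. Ybx1 itself lies on chromosome 4 at chr4:119277327-119296265, 26.2 Mb from the nearest gene of that cluster.

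The copies within a cluster can be so alike that reads cannot be assigned to either. The coding sequences of Zfp966 and Zfp967, both of 1458 bases, were identical, and the 1455 bases of Zfp968 lay whole within them. The stretch shown encodes a finger that these 3 genes share letter for letter, at bases 601 to 690 of the Zfp966 coding sequence. Capitals mark the codons of the 2 cysteines and 2 histidines that hold the zinc ion.

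Zfp966, Zfp967 and Zfp968: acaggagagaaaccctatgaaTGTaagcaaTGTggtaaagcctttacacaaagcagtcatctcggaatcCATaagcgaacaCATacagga

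Zfp965 and Zfp973 were likewise identical over all 957 coding bases. Zfp991 and Zfp992 differed at 8 of 1722 coding bases. The next stretches show bases 517 to 726 of both, with the 2 differences they hold in capitals, because these genes carried the lower levels reported below and their reads are hard to tell apart.

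Zfp991: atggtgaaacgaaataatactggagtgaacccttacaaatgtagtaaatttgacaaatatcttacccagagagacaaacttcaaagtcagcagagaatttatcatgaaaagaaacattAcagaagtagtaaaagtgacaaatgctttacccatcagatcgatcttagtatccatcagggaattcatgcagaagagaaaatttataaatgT
Zfp992: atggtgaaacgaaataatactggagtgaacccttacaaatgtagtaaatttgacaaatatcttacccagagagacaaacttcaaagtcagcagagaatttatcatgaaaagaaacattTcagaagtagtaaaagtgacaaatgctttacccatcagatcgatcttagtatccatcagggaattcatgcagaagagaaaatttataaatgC

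The promoters of the group also resembled each other. YB-1 was first described by its binding to the Y box, which reads CTGATTGG on 1 strand and CCAATCAG on the other, and which holds an inverted CCAAT box. The study located the protein mainly in the cytoplasm of cultured cortical progenitors, and proposes that a function in transcription may be questionable there. Whether YB-1 binds the promoters of the group was not tested. RefSeq promoters of GRCm38.p6, from 250 bases before to 50 bases after the annotated start, were found for 53 of the 60 genes. CCAATCAG or CTGATTGG occurred in 20 of these 53, or 37.7%, against 10.6% of 246 promoters of other Zfp genes and 6.27% of 10638 promoters of genes tested. All 21 matches in the group read CCAATCAG along the gene, while 52.1% of the 722 matches among all genes tested did, and the median match began 65 bases before the start. The shorter CCAAT or ATTGG, which every such match contains, occurred in 40 of 53, or 75.5%, against 39.2% of the genes tested. Promoters copied together are not independent: in the chromosome 2 cluster all 9 held CCAATCAG, and those of Zfp966 and Zfp967 were identical over 300 bases. The promoters shown are the 150 bases before the start of 4 genes from separate loci, with CCAAT in capitals, and were chosen because 3 of them hold CCAATCAG next to similar flanks while that of Zfp976 departs from it in the last base.

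Zfp966, chr2:175931101-175931250, minus strand: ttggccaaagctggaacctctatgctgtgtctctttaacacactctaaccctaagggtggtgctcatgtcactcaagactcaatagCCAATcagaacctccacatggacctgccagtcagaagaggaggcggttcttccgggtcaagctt
Zfp932, chr5:109996360-109996509, plus strand: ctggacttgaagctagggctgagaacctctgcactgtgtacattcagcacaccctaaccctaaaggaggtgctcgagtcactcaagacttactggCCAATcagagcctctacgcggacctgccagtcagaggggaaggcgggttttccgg
Zfp937, chr2:150217949-150218098, plus strand: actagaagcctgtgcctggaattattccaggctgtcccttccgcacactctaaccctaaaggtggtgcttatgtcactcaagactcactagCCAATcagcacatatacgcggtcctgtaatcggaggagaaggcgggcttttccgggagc
Zfp976, chr7:42642605-42642754, minus strand: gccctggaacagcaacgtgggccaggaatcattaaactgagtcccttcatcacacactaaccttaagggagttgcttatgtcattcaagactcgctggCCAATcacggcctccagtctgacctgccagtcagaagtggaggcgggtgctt

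The 6 libraries held between 15907486 and 16282921 estimated counts. Ybx1 was at 1021, 528 and 1219 CPM (counts scaled to the library total) in WT 1, WT 2 and WT 3 and at 83.01, 117 and 146 CPM in cKO 1, cKO 2 and cKO 3, so WT 2 was intermediate. Its log2 fold change of cKO over WT was -3.00 (SE 0.332), with an adjusted p of 0.128 by edgeR's quasi-likelihood test and 0.0188 without WT 2 and cKO 3. The cortical markers Emx1 and Neurod6 were present in all 6 libraries, Emx1 at 78.8 to 99.4 CPM and Neurod6 at 736 to 1008 CPM. In cKO 3, 5 epidermal markers summed to 245 CPM, against 0.564 to 1.123 CPM in the other 5 libraries, and 7 meninges or choroid plexus markers to 517 CPM against 8.24 to 16.8. The 8 listed markers of ventral interneurons summed to 70.5 to 123 CPM in WT and 145 to 153 CPM in cKO, without overlap between genotypes. Their part in the results below was not tested, and in dissected tissue fewer cells of a type and less RNA per cell cannot be told apart. The counts of calls and of negative log2 fold changes over the whole group are therefore given also without WT 2 and cKO 3. Counts without overlap, by shared sequence and by promoter are for all 6 libraries only.

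Of the 60 genes, 50 passed the filter on low counts and were tested, a filter that used levels in both genotypes. The other 10 were Zfp957, Zfp936, Zfp968 and 7 genes of the chromosome 4 cluster, Zfp978, Zfp980, Zfp981, Zfp985, Zfp987, Zfp990 and Zfp993. Of these, Zfp968 had 0 to 10.9 estimated counts in a library, and the other 9 had at most 2.12. A count of 0 allowed up to 0.181 to 0.188 CPM in these libraries, so 9 of these genes were close to or under what this depth can detect. The counts of Zfp968 depend on how reads were divided among its identical copies, and Zfp987 and Zfp993 share 86.5% and 76.2% of their 100-base coding windows with other genes.

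Levels were compared between genes as TPM, a share of transcripts that corrects for length. Zfp932, which with its close paralog Gm15446 is known to repress endogenous retroviruses in embryonic stem cells, had the highest mean, at 50.4, 44.6 and 42.8 TPM in the WT libraries and 50.3, 42.0 and 43.6 TPM in the cKO libraries. Zfp946 followed at 45.5, 42.2 and 39.2 TPM in WT and 41.4, 34.4 and 36.7 TPM in cKO. The ranges of these genes overlapped between genotypes and with each other, but within every library Zfp932 was above Zfp946. Zfp971 was the steadiest of the leading genes, at 30.2, 30.4 and 31.3 TPM in WT and 31.4, 30.4 and 30.3 TPM in cKO. The next 3 by mean were Zfp950 at 27.4 TPM, Zfp961 at 26.9 TPM and Zfp970 at 24.9 TPM, which differed by less than the SD of Zfp950 within genotypes, 2.78 TPM. The means of Zfp942, Zfp944, Zfp952 and Zfp954 lay between 19.2 and 19.8 TPM. The median gene tested in the group had 10.9 TPM, against 25.4 TPM for all genes tested, and the lowest of the 50, Zfp979, had 0.617 TPM.

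**Figure D1:**
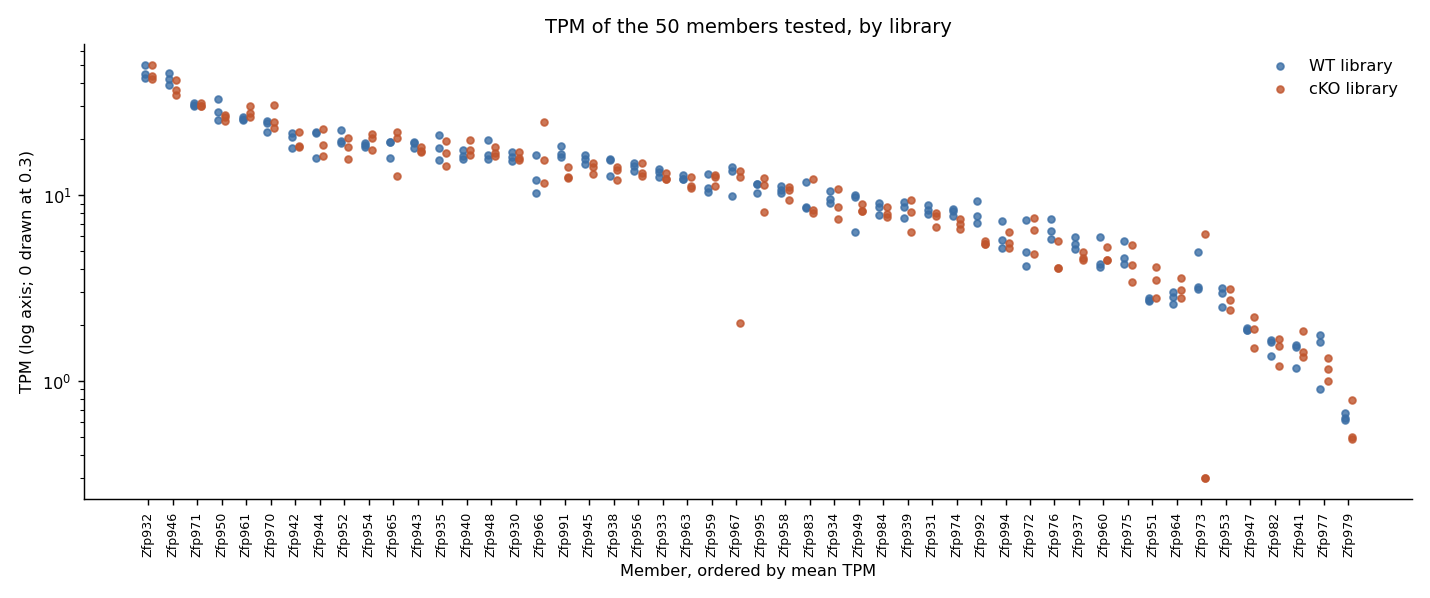
TPM (log axis) of the 50 genes tested, ordered from left to right by the mean over 6 libraries, with WT libraries in blue and cKO libraries in orange. Zfp932 stands first at a mean of 45.6 TPM and Zfp979 last at 0.617 TPM, and the points of Zfp967 in cKO 1 and of Zfp973 in cKO 1 and cKO 2 fall far below their other points.

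No gene of the group passed an adjusted p of 0.05 between cKO and WT by edgeR's quasi-likelihood test, and 0.0% of all 13340 genes tested did (lowest adjusted p in the group 0.99995; 0 calls in the group also by DESeq2, limma-voom and limma on TPM). At an unadjusted p under 0.05, 5 of the 50 genes tested were lower in cKO, or 10%, and 0 were higher, against 1.81% lower and 1.75% higher among all genes tested. The 5 were Zfp992, Zfp976, Zfp991, Zfp937 and Zfp946. Without WT 2 and cKO 3, 4 of 50 were lower, Zfp992, Zfp976, Zfp991 and Zfp973, the last listed at 0 in both remaining cKO libraries, against 1.06% of all genes. The 3 WT and 3 cKO libraries did not overlap for 10 genes that were lower, or 20% of the group against 4.84% of all genes tested, and for 1 that was higher, against 4.17%. Several of these genes share reads, so they are not separate observations.

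The fold changes were mostly small and mostly negative. Of the 50 genes, 39 had a negative log2 fold change, or 78% against 49.2% of all genes tested, and 42 differed by less than 0.25 on the log2 scale. The median log2 fold change was -0.08, against 0.00 for all genes tested. By library, the median over the 50 genes of log2 CPM relative to the WT mean was -0.02, 0.04 and -0.03 in the WT libraries and 0.00, -0.10 and -0.09 in the cKO libraries. The medians of cKO 2 and cKO 3 were below those of all WT libraries, while cKO 1 lay among them. Without WT 2 and cKO 3 the median was -0.04, and 64.0% of the group was negative against 48.4% of all genes. Without WT 2 alone the median was also -0.04.

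**Figure D2:**
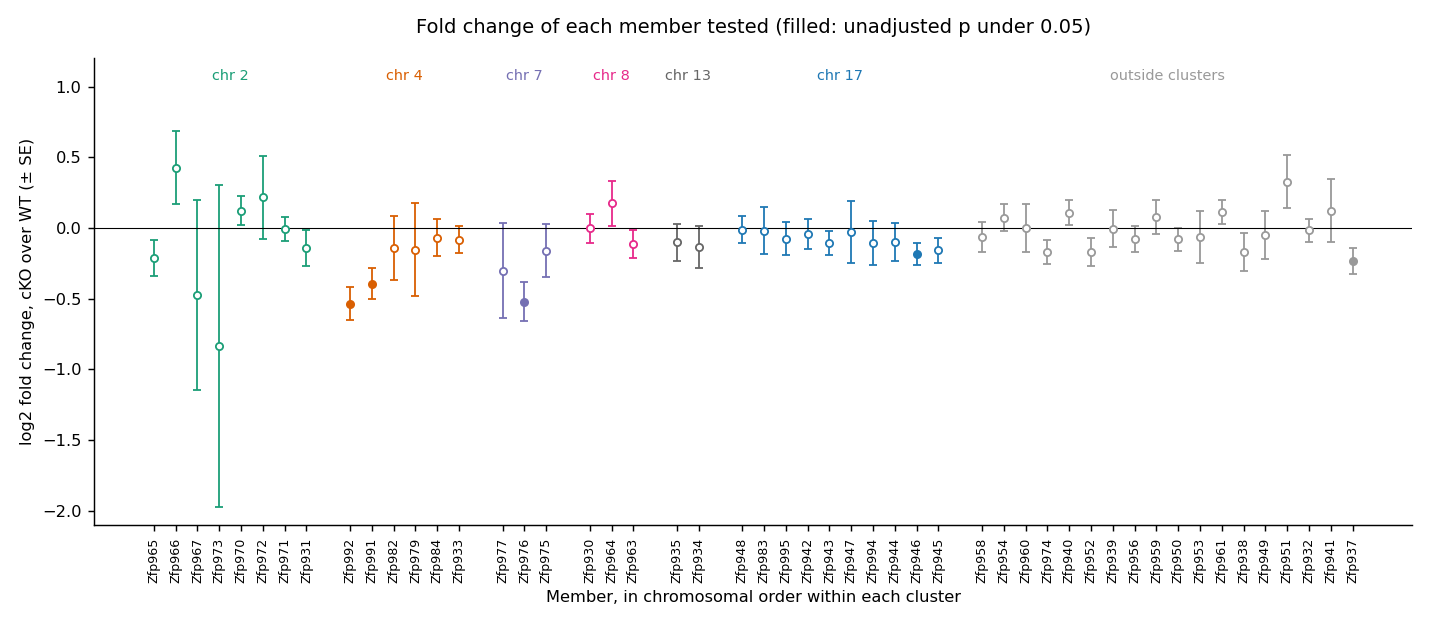
The log2 fold change of cKO over WT with its standard error for each of the 50 genes tested, grouped by chromosomal cluster and in chromosomal order within it. Filled points have an unadjusted p under 0.05. All 10 genes of the chromosome 17 cluster and all 6 tested of the chromosome 4 cluster lie below 0 in this fit of all 6 libraries, and the widest error bars are those of Zfp967 and Zfp973.

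Zfp992 (gene ID 433791; chr4:146449030-146469440) was at 14.3, 13.0 and 11.7 CPM in WT and 8.49, 9.19 and 9.19 CPM in cKO. The highest cKO library stood under the lowest WT library, and the cKO level was 69.1% of WT (log2 fold change -0.53, SE 0.115, unadjusted p by the edgeR model 0.0017). Its near-identical copy Zfp991 (gene ID 666532; chr4:147132093-147180579) was at 18.7, 22.6 and 19.3 CPM in WT and 14.3, 15.1 and 16.6 CPM in cKO, again with no overlap (log2 fold change -0.39, SE 0.112). Every estimated count of either gene was fractional, as a program such as RSEM gives where it divides reads between genes (the submitters' processing notes name RSEM without saying what it was used for), and 58.7% of the 100-base windows of the Zfp992 coding sequence also occurred in Zfp991. The sum of Zfp991 and Zfp992 does not depend on how reads were divided between them. It was 33.0, 35.5 and 31.0 CPM in WT and 22.8, 24.3 and 25.8 CPM in cKO, or 33.2 ± 2.29 CPM against 24.3 ± 1.53 CPM (mean ± SD, n = 3 each). With Zfp993 added and the table fitted anew, the log2 fold change of the sum was -0.45 (SE 0.0935), and -0.44 without WT 2 and cKO 3. By shared windows the sequence most like Zfp991 was Znf41-ps, with 76.7% of the windows of Zfp991, and Znf41-ps was not analysed here.

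Zfp976 (gene ID 208111; chr7:42609514-42644267) was at 16.2, 13.51 and 14.7 CPM in WT and 12.2, 9.50 and 9.22 CPM in cKO. The highest cKO library was below the lowest WT library, and the cKO level was 69.7% of WT (log2 fold change -0.52, SE 0.140, unadjusted p by the edgeR model 0.0059). Its nearest relative and neighbour Zfp975 was 90.5% identical in the aligned coding sequence and shared 10.2% of the 100-base windows of Zfp976, and every estimated count of both genes was fractional. Zfp975 was at 7.33, 5.998 and 6.38 CPM in WT and 7.11, 5.92 and 4.62 CPM in cKO, with overlap between genotypes. The sum of Zfp975 and Zfp976 was 23.5, 19.5 and 21.1 CPM in WT and 19.3, 15.4 and 13.8 CPM in cKO, without overlap but with WT 2 close to cKO 1. Fitted anew, the sum had a log2 fold change of -0.40 (SE 0.140, unadjusted p by the edgeR model 0.0218), and of -0.36 without WT 2 and cKO 3, where it did not pass the unadjusted threshold (p 0.0597). The third gene tested of this cluster, Zfp977, was at 0.681 to 1.31 CPM in WT and 0.752 to 0.963 CPM in cKO and also overlapped. Zfp992, Zfp991 and Zfp976 stayed lower at an unadjusted p under 0.05 in all 14 alternative fits, with p at most 0.0294.

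Zfp937 (gene ID 245174; chr2:150218077-150246738) was at 18.9, 18.9 and 17.5 CPM in WT and 15.96, 16.3 and 14.8 CPM in cKO. The genotypes did not overlap, and the level in cKO was 85.2% of WT (log2 fold change -0.23, SE 0.0911). Zfp946 (gene ID 74149; chr17:22424182-22456689) was at 55.4, 55.9 and 51.3 CPM in WT and 51.0, 45.6 and 46.6 CPM in cKO. The value of cKO 1 was below that of WT 3 by less than the SD of WT, 2.53 CPM. The cKO level of Zfp946 was 88.2% of WT (log2 fold change -0.18, SE 0.0770). Without WT 2 and cKO 3 the log2 fold changes of these genes were -0.17 and -0.14, and neither passed the unadjusted threshold. With 1 library left out, Zfp937 missed that threshold in 4 of 6 fits, those without WT 1, WT 2, cKO 1 or cKO 3, and Zfp946 in 5 of 6, all but the fit without cKO 1. Both also missed it with DESeq2 and with limma on log2(TPM + 1).

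**Figure D3:**
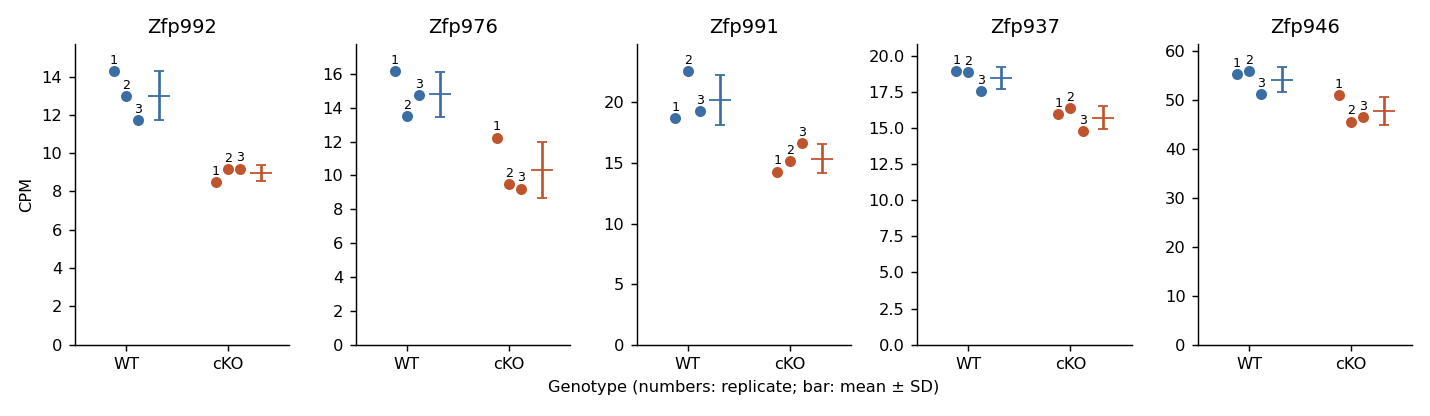
CPM in each library for Zfp992, Zfp976, Zfp991, Zfp937 and Zfp946, with WT in blue and cKO in orange, the replicate number above each point, and the mean ± SD beside it. In each panel the 3 cKO points lie below the 3 WT points, by the narrowest margin for Zfp946, at 51.3 CPM in WT 3 and 51.0 CPM in cKO 1.

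The other genes without overlap between genotypes differed by less. Zfp974 was at 25.5, 27.6 and 24.2 CPM in WT and 23.3, 22.5 and 22.9 CPM in cKO (log2 fold change -0.17, SE 0.0868). Zfp945 was at 44.0, 49.98 and 44.0 CPM in WT and 40.5, 39.4 and 43.6 CPM in cKO (log2 fold change -0.16, SE 0.0857). In both, the lowest WT library exceeded the highest cKO library by less than 1 CPM. Zfp931, Zfp963 and Zfp943 had log2 fold changes of -0.14, -0.11 and -0.10, and of -0.0787, -0.0568 and -0.041 without WT 2 and cKO 3. Leaving out cKO 3 alone gave -0.0868 for Zfp931 and -0.0739 for Zfp963, and leaving out WT 2 alone gave -0.0586 for Zfp943 and -0.0946 for Zfp945. Zfp940 was the single gene whose cKO libraries were all higher, at 21.2, 21.2 and 19.9 CPM in WT and 24.0, 21.3 and 21.8 CPM in cKO (log2 fold change 0.11, SE 0.0896).

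Among the 12 genes with the lowest p, 3 had higher means in cKO. Zfp951 was at 3.33, 3.47 and 3.50 CPM in WT and 4.93, 4.51 and 3.49 CPM in cKO, where cKO 3 lay at the level of WT (log2 fold change 0.33, SE 0.188). Zfp961 was at 27.2, 30.5 and 28.9 CPM in WT and 32.4, 31.8 and 29.4 CPM in cKO (log2 fold change 0.11, SE 0.0867). The third, Zfp966, is described with its copies in the next paragraph. Zfp952 was at 28.0, 27.0 and 25.6 CPM in WT and 25.9, 21.4 and 24.4 CPM in cKO (log2 fold change -0.17, SE 0.0994), with cKO 1 inside the WT range. Zfp932, at 79.7 ± 4.88 CPM in WT and 78.8 ± 6.03 CPM in cKO, had a log2 fold change of -0.02 (SE 0.0799), positive in 3 of the fits that left out a library.

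The genes that varied most between libraries of 1 genotype were Zfp973, Zfp967 and Zfp966, and all 3 have identical copies in the chromosome 2 cluster. Zfp967 had 200, 352 and 324 estimated counts in WT and 22.9, 331 and 284 in cKO. Zfp966 had 354, 248.5 and 291 in WT and 573, 280 and 361 in cKO. In cKO 1, the library where Zfp967 was lowest, Zfp966 was highest. The sum of Zfp966, Zfp967 and Zfp968 was 34.8, 37.5 and 38.7 CPM in WT and 37.9, 38.3 and 39.3 CPM in cKO, a 1.13-fold range over 6 libraries where Zfp967 alone spanned 15.2-fold. The log2 fold change was -0.47 (SE 0.672) for Zfp967, 0.43 (SE 0.258) for Zfp966 and 0.06 (SE 0.0774) for the sum.

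Zfp973 was listed at 24.4, 26.2 and 40.6 estimated counts in WT, at 0 in cKO 1 and cKO 2, and at 51.6 in cKO 3. Its identical copy Zfp965 had 395, 343 and 455 in WT and 375, 334 and 332 in cKO. Together they stood at 26.3, 22.9 and 31.0 CPM in WT and 23.4, 20.96 and 23.1 CPM in cKO, with overlap between genotypes (log2 fold change of the sum -0.25, SE 0.124). The overlap came from WT 2 alone, and without WT 2 and cKO 3 the log2 fold change of the sum was -0.37, with an unadjusted p of 0.0367 by the edgeR model.

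**Figure D4:**
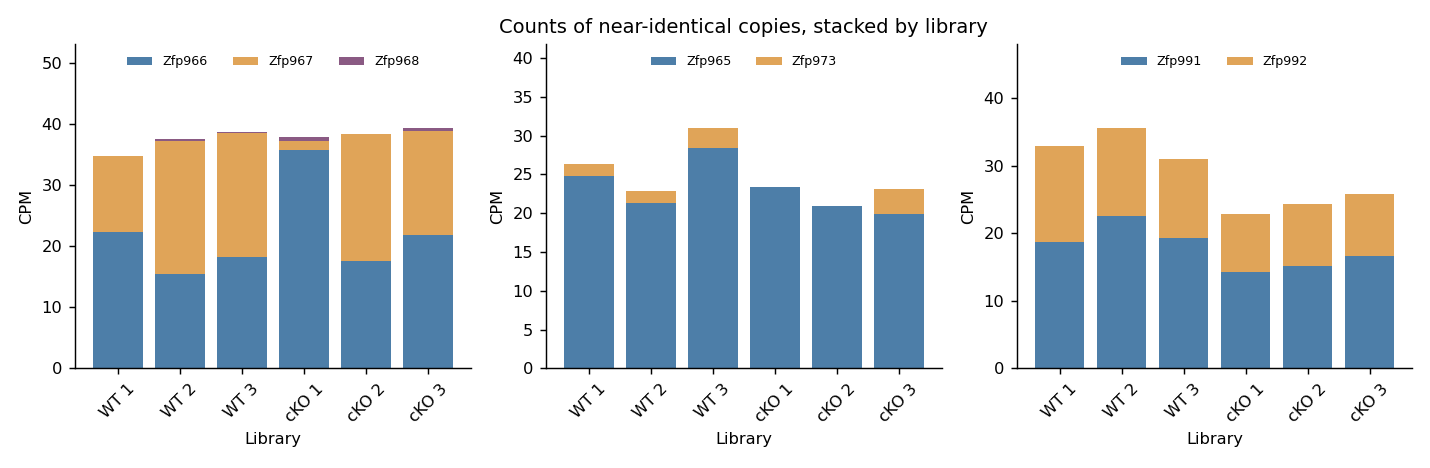
CPM of near-identical copies stacked for each of the 6 libraries, with Zfp966, Zfp967 and Zfp968 on the left, Zfp965 and Zfp973 in the middle and Zfp991 and Zfp992 on the right. The stack on the left stays between 34.8 and 39.3 CPM although Zfp967 almost vanishes from it in cKO 1, and the stack on the right is at 31.0 CPM or more in WT and at 25.8 CPM or less in cKO.

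Fractional counts were more frequent in genes that share sequence. Of the 360 values of the group, 40.6% were further than 0.005 from a whole number, against 12.8% for other Zfp genes and 10.9% for the whole table. In the 20 genes tested whose coding sequence had no 100-base window in common with another gene, 14.2% of values were fractional, against 69.2% in the 20 with up to 50% of windows shared and 74.1% in the 9 with more. The median SD of log2 CPM within genotypes was 0.102, 0.160 and 0.172 in these classes, against 0.142 for all genes tested. The median log2 fold change was -0.08, -0.07 and -0.21. Genes lower at an unadjusted p under 0.05 numbered 1, 2 and 2, against 1.81% of all genes tested. In the class with over 50% shared the 2 were the near-identical Zfp991 and Zfp992, and Zfp965, Zfp966, Zfp967 and Zfp973 also belong to it. Of the 20 genes without shared windows, 16 had a negative log2 fold change. So did 16 of the 20 with up to 50% shared and 6 of the 9 with more, against 49.2% of all genes tested. Zfp946 was the single gene of the 5 with no shared window.

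**Figure D5:**
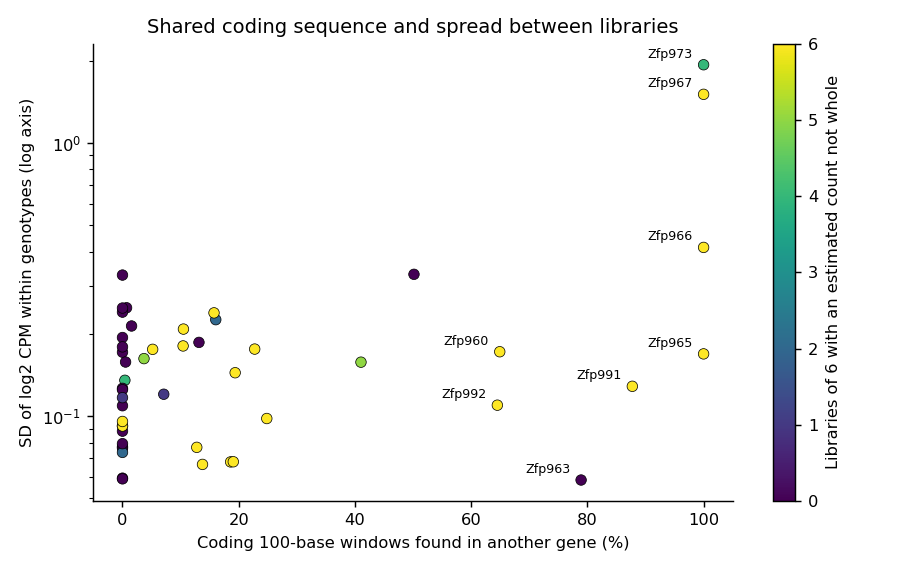
Each point is a gene tested, placed by the percent of its 100-base coding windows that occur in another gene and by the SD of its log2 CPM within genotypes (log axis), and coloured by how many of its 6 estimated counts were fractional. Zfp973, Zfp967 and Zfp966 stand highest, at SDs of 1.93, 1.51 and 0.414 with all windows shared, while Zfp965, also at 100%, has an SD of 0.169.

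The fold changes can also be read by cluster. In the chromosome 17 cluster all 10 genes were tested and all 10 log2 fold changes were negative, between -0.18 and -0.01 with a median of -0.09. This did not hold in every fit that left out a library: 8 of 10 were negative without WT 1 or without WT 2, and 7 without cKO 2, without cKO 3 or without WT 2 and cKO 3. In the chromosome 4 cluster all 6 genes tested were negative, from -0.53 to -0.07, and 5 of 6 were without WT 2, without cKO 1 or without WT 2 and cKO 3. In the chromosome 7 cluster all 3 were negative, from -0.52 to -0.16. The chromosome 8 cluster held 2 negative values and 1 positive value, that of Zfp964. The chromosome 2 cluster held 5 negative and 3 positive values, and the 18 genes tested outside clusters 11 negative and 7 positive, with medians of -0.07 and -0.03. Pearson's r of log2 CPM over the 6 libraries between neighbouring genes had a median of 0.68 in the chromosome 17 cluster (9 pairs, 0.11 to 0.77) and 0.09 in the chromosome 2 cluster (7 pairs, -0.95 to 0.57). In the chromosome 8 cluster the median was -0.31 (2 pairs). It was 0.61 in the chromosome 4 cluster (5 pairs, -0.54 to 0.92), 0.61 in the chromosome 7 cluster (2 pairs) and 0.66 in the chromosome 13 cluster (1 pair). These neighbours share libraries, depth and, within clusters, reads, and the values are descriptions.

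The other zinc finger genes of the table were summarised for comparison. Among 287 tested genes named Zfp with another number, 64.5% had a negative log2 fold change and the median was -0.03. At an unadjusted p under 0.05, 7 were lower, or 2.44%, and 1 was higher. They included Zfp704 at -0.29, Zfp110 at -0.25 and Zfp292 at -0.19. The median moved to -0.01 without WT 2 and cKO 3, when 52.9% were negative, and to -0.01 without WT 1 alone, when 52.6% were. Without cKO 3 alone 52.2% were negative, with a median of -0.02. In the fits without WT 2, WT 3, cKO 1 or cKO 2 alone, between 61.2% and 66.8% were negative. The group moved as well. With 1 library left out, its negative share ranged from 64.0% without cKO 3 to 76.0% without WT 3. Whether the group differed from the other Zfp genes was not tested.

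Transcripts of the proteins that KRAB zinc finger proteins work through were measured by a list of 31 genes, all of which passed the filter. At an unadjusted p under 0.05, 1 was lower and 0 were higher, against 1.81% lower and 1.75% higher among all genes tested. The adjusted threshold was passed by 0. Of the 31 log2 fold changes, 21 were negative, against 49.2% of all genes tested, and the median was -0.04. The lower gene was Cbx5, which encodes HP1 alpha, at 512, 582 and 580 CPM in WT and 371, 459 and 420 CPM in cKO. The genotypes did not overlap (log2 fold change -0.42, SE 0.100, adjusted p 0.99995 by the edgeR model). Nor did they overlap for Atrx (log2 fold change -0.09, SE 0.0713) and Resf1 (-0.11, SE 0.0639), which were also lower but missed the unadjusted threshold. Of all genes tested, 4.84% were lower without overlap. Trim28, the scaffold that binds the KRAB domain, was at 593 ± 33.0 CPM in WT and 583 ± 57.4 CPM in cKO (log2 fold change -0.02, SE 0.0940). Setdb1, the methyltransferase it recruits, was at 169 ± 5.57 CPM in WT and 171 ± 2.62 CPM in cKO (log2 fold change 0.02, SE 0.0617). The differences of Trim28 and Setdb1 were smaller than the SD of either genotype.

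Fold changes were also set side by side for genes with and without CCAATCAG in the promoter. The 19 tested genes whose promoter held it had a median log2 fold change of -0.06, with 12 negative and 1 at an unadjusted p under 0.05, which was Zfp937. The 26 tested genes whose promoter did not hold it had a median of -0.08, with 23 negative and 2 such p-values. Among all genes tested, 49.2% had a negative log2 fold change and 1.81% were lower at an unadjusted p under 0.05. The genes with CCAATCAG include those tested of the chromosome 2 cluster, among them Zfp966 and Zfp967 with identical promoters, so they are not separate observations. Whether the promoter groups differed was not tested. Zfp991 and Zfp992 were among the genes for which no promoter was found.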

How the data were processed

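Cortical RNA of 3 WT and 3 cKO embryonic samples was sequenced by the authors on a DNBSEQ platform after mRNA purification. The submitters' processing notes name HISAT2 2.2.1, Bowtie2 2.4.5, RSEM 1.3.1 and GRCm38 (mm10) without their roles. RSEM, which divides ambiguous reads between genes, was taken as the source of the counts. The annotation and the use of strand are not given in the sources used here. The authors deposited 1 table of expected counts without depth normalisation, and also deposited TPM, scaled for length and depth. The FPKM values deposited by the authors and 6 columns of group averages were not used. The study counts its samples as independent replicate experiments, and the labels name no batch.

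Expected counts were rounded. Genes were kept by filterByExpr (minimum count 10, minimum total 15), and 13340 were tested by edgeR's quasi-likelihood test (edgeR 4.0.16, limma 3.58.1, DESeq2 1.42.0, R 4.3.3) with TMM factors and genotype as the only term. P-values are two-sided, adjusted by Benjamini and Hochberg over all genes tested, and the SE is the log2 fold change divided by the square root of F. Library values are CPM with TMM factors, and depth gives intervals for counting error only. With 3 against 3 libraries the smallest exact permutation p is 0.1. The fits were tested on simulated counts with larger log2 fold changes than any of the group and without division of reads between copies. That run therefore does not bear on small changes or on near-identical copies. Same-numbered libraries deviated together from their genotype means with r of 0.41, 0.31 and -0.02. Unlike-numbered libraries were not compared in this way and the labels name no pairing, so whether the numbers pair the samples was not tested. A fit with the replicate number as a block is given among the alternatives.

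The group, the lists and the promoter motif were chosen with earlier results of these data known. Genes named were Ybx1, the 12 genes with the lowest p, the 10 with the highest TPM, up to 12 without overlap between genotypes, the 3 with the largest spread, Zfp932, Trim28, Setdb1 and cofactors with an unadjusted p under 0.05. Others are named for their position, their copies or, among the cofactors, a lack of overlap, after their values were seen.

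Coding sequences came from GENCODE M21 (GRCm38), since a protein table was not analysed here, and the planned protein comparison was made with blastn 2.17.0 on coding sequences and with exact 100-base windows. Coordinates and promoters came from RefSeq GRCm38.p6, matched by gene ID for all 60 genes, with 1 promoter per gene. The alternatives were DESeq2, RLE factors, omission of the filter, a minimum of 10 counts per library, limma-voom, limma on log2(TPM + 1), the replicate number as a block, each library left out, WT 2 and cKO 3 left out together, a tolerance of 0.05 for whole numbers, and relatives sought only within the group. Summing near-identical copies was added after the data were seen.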

Additional observations from a re-analysis of the deposited data

How the results depend on the processing

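Over 14 alternative fits, 0 genes of the group passed the adjusted threshold in any, and the number lower at an unadjusted p under 0.05 was 5 with RLE factors, with either other filter and with the replicate block, 6 with limma-voom, 3 with DESeq2 and 3 with limma on log2(TPM + 1), and 4 in each fit that left out a library. Zfp992, Zfp976 and Zfp991 were called in all of these. The fourth gene was Zfp938 without WT 1, Zfp965 without WT 2, Zfp937 without WT 3 or cKO 2, Zfp946 without cKO 1, and Zfp973 without cKO 3 or without WT 2 and cKO 3. The share of all genes tested that were lower at this threshold also moved, from 1.81% in the main fit to 4.603% with the replicate block. It was 3.574% without cKO 1 and 0.873% without WT 3, and between 1.056% and 1.826% in the other fits. An equal count in the group was therefore a smaller excess over all genes with the replicate block. The number of genes of the group that were higher was 1 (Zfp966) with the replicate block, and 0 or 1 when a library was left out. Of other Zfp genes, 2 were lower without WT 2 and cKO 3, 4 with limma on log2(TPM + 1), 14 with the replicate block, and 1 to 11 when a library was left out. The number of other Zfp genes higher was 0 with DESeq2 and without WT 2 and cKO 3, 2 with limma-voom, limma on log2(TPM + 1), both other filters and the replicate block, and 0 to 4 when a library was left out. Of the cofactors, 2 were lower with the replicate block, 1 to 2 were lower and 0 to 1 higher when a library was left out.

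The median log2 fold change of the group stayed negative, from -0.11 without cKO 1 to -0.04 without WT 2 or without WT 2 and cKO 3. Ybx1 passed the adjusted threshold with DESeq2 (-3.00), without WT 2 and cKO 3 (-3.49) and with the replicate block (-2.95), and ranged from -3.28 to -2.75 when a library was left out, where it passed only without WT 2 (-3.28, adjusted p 0.0206 by the edgeR model). Small values changed sign: Zfp971 was 0.0096 without WT 2 and cKO 3 and 0.0027 with limma on log2(TPM + 1), and -0.0479 to 0.0318 when a library was left out. Zfp942 was 0.0898 and Trim28 0.0052 without WT 2 and cKO 3, and they ranged from -0.10 to 0.0428 and from -0.10 to 0.0438 when a library was left out. Zfp932 ranged from -0.072 to 0.0395 and Setdb1 from -0.0017 to 0.044. Zfp967 ranged from -0.97 to 0.0635 and turned positive without cKO 1. It was 0.0589 when summed with Zfp966 and Zfp968, which by construction removes the division of reads among these copies only. The summed counts were still fractional, as at 554.35 in WT 1. Fractional values were 33.9% of the group's values at a tolerance of 0.05. Identity to the nearest relative had a median of 90.5%, and of 88.4% within the group.

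The replicate block changed no other call in the group. Few counts limited the genes below the filter and those under about 1 CPM, such as Zfp979 and Zfp977. For Zfp968, Zfp987 and Zfp993, which share over 50% of their coding windows with other genes, the division of reads cannot be told apart from a low level. The cause of the changes between fits was not tested.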

Other observations

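The intervals of the clusters hold other genes, and those with an unadjusted p under 0.05 were looked at after their values were seen. In the chromosome 2 interval 16 other genes were tested, with 0 lower and 3 higher, against 1.81% and 1.75% of all genes tested. Gm2004 was at 4.43, 4.58 and 7.88 CPM in WT and 8.09, 8.60 and 8.97 CPM in cKO (log2 fold change 0.60, SE 0.227). Gm14296 was at 15.99, 10.3 and 11.6 CPM in WT and 19.1, 13.6 and 25.3 CPM in cKO (log2 fold change 0.62, SE 0.244). Gm14322 was at 9.25, 11.1 and 14.6 CPM in WT and 22.0, 16.3 and 13.6 CPM in cKO (log2 fold change 0.57, SE 0.217). Only Gm2004 of these 3 had no overlap between genotypes, and their adjusted p was 0.99995 by the edgeR model. Gm14322 held 8.52% of the 100-base coding windows of Zfp931, and the part of divided reads in these values was not tested.

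In the chromosome 4 interval Gm13212, the nearest relative of Zfp984 at 97.2% identity, was at 0.504, 0.312 and 0.318 CPM in WT and 0.596, 1.01 and 1.19 CPM in cKO (log2 fold change 1.32, SE 0.405, adjusted p 0.99995 by the edgeR model). Zfp984 itself was at 10.8, 14.2 and 13.0 CPM in WT and 13.1, 11.8 and 11.4 CPM in cKO, and its log2 fold change was -0.07. Which copy these few reads came from was not tested.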
